A study of Homo sapiens with 4 samples.

Results

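The globin genes HBE1, HBB, HBD, HBZ, HBM, HBQ1, CYGB and NGB were followed in HEK293 cells, an established human line derived from embryonic kidney, after 7 days in high or low glucose. All 8 members had a probe set that the platform annotation assigns to them alone, out of 19775 genes with such a probe set, and together they had 15 probe sets. The members were chosen by gene family, starting from HBE1, which was selected on its measured difference between high and low glucose and on the disagreement between its probe sets. Values of this contrast are therefore given for the members as a description, without a test.

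Total RNA was hybridised to 4 single-colour Affymetrix arrays as biotin-labelled cRNA. The high glucose group holds 2 arrays, of cells grown in DMEM at 450 mg/dl, and the low glucose group 2 arrays, of cells grown in DMEM at 100 mg/dl. Both media contained fetal calf serum, and all 4 samples are the same untreated, unmodified line. Where no label says how replicate cultures were kept apart, p-values measure only the spread between these samples.

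Globins are small proteins that bind heme and through it oxygen. Hemoglobin joins alpha-like with beta-like chains, whose genes lie in separate clusters on chromosomes 16 and 11 and are switched on in red cell precursors one after another during development. HBE1 (epsilon) and HBZ (zeta) are the chains of the first embryonic red cells, HBB (beta) and HBD (delta) are adult chains, and HBM (mu) and HBQ1 (theta) are minor members of the alpha cluster. CYGB (cytoglobin) is made in many tissues, largely by fibroblast-like cells, and NGB (neuroglobin) mainly in neurons.

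Most globin probe sets were dim. Signals are in the arbitrary units of the array software, and a probe set entered the statistical fit when its mean log2 signal reached the median of all, which equals a signal of 32.9. Only 3 of the 15 globin probe sets did so, 1 each of HBE1, HBB and CYGB, and HBE1 passed only through its high glucose arrays. A single probe set, of CYGB, lay above 32.9 on all 4 arrays, 6 exceeded it on 1 to 3 arrays and 8 on none. Detection calls were not used here, so a signal under 32.9 shows neither presence nor absence of a transcript.

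**Figure D1:**
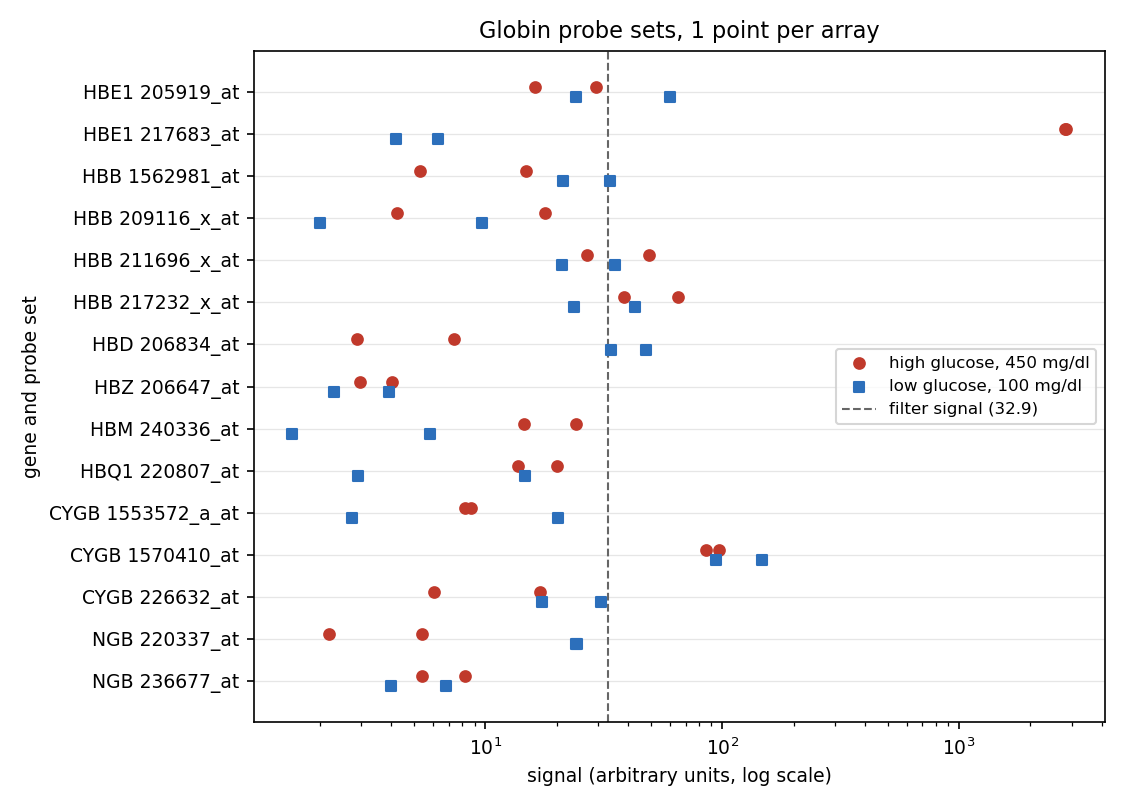
Signal of each of the 15 globin probe sets on each array, on a log axis, with high glucose as circles, low glucose as squares and the filter signal of 32.9 as a dashed line; close points overlap. Only HBE1 217683_at in high glucose lies far from the rest, at 2828 and 2788.

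The bright HBE1 probe set, 217683_at, separated the groups by a wide margin. In replicates 1 and 2 the signal reached 2828 and 2788 with high glucose, against 6.31 and 4.20 with low glucose. Both high glucose arrays were bright and nearly equal, both low glucose arrays lay in the dimmest part of the range, and the groups did not overlap. Within each array, the signal ranked between the 97.9th and 98.0th percentile of all non-control probe sets in high glucose and between the 13.6th and 17.8th in low glucose. The group means were 2808 ± 28.3 and 5.26 ± 1.5 (SD, n = 2). The log2 difference, high minus low, was 9.09, or 545-fold between geometric means. Since the low glucose level is not shown to be above background, that fold has no fixed size. Set against the filter signal of 32.9 in place of the low glucose values, the high glucose mean was 85.3-fold higher. In bulk RNA, fewer cells with a transcript and less of it per cell cannot be told apart.

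The other HBE1 probe set, 205919_at, did not show this difference. Its high glucose signals were 16.2 and 29.4, its low glucose signals 60.2 and 24.1. The groups overlapped, low glucose replicate 1 was the only array above 32.9, and the log2 difference was -0.80. It was -0.15 without low glucose replicate 1, -0.37 without high glucose replicate 1, -1.23 without high glucose replicate 2 and -1.46 without low glucose replicate 2. For this dim probe set the platform annotation cites the RefSeq transcript of HBE1, whereas it lists no accession for the bright one. Which stretch of RNA each probe set reads was not analysed here.

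The disagreement between the HBE1 probe sets was the widest on the array. Over the 10523 genes with more than 1 single-gene probe set, the spread between a gene's highest and lowest log2 difference had a median of 0.94. It exceeded 4 in 173 genes. HBE1 stood first with a spread of 9.90, and the next gene, DNAJC15, had 6.54. Because HBE1 was chosen for this disagreement, its rank is a description.

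**Figure D2:**
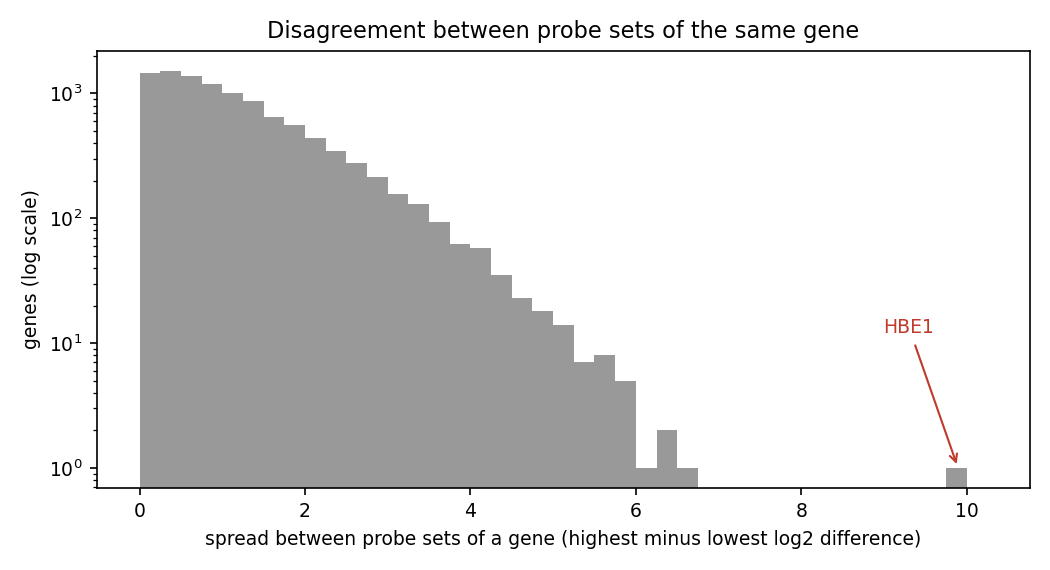
Histogram of the spread, in log2 units, between the highest and lowest high-minus-low difference among the probe sets of a gene, for the 10523 genes with several probe sets; the number of genes is on a log axis. HBE1 lies alone at 9.90, beyond the next gene at 6.54.

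The rise of the bright HBE1 probe set was also the largest of the 54613 non-control probe sets. The second largest, at 7.79 log2 units, belonged to 217572_at, a probe set to which the annotation gives no gene. It had 1310 and 1180 on the high and 4.50 and 7.02 on the low glucose arrays. Like the bright HBE1 probe set it was bright on both high glucose arrays and dim on both low glucose arrays. These were the only 2 probe sets above 1000 on both arrays of one group and below 32.9 on both of the other, and 0 showed the opposite pattern. The limit of 1000 was chosen after the values had been seen.

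Among single-gene probe sets in the fit, the nearest in profile to the bright HBE1 probe set were CCN2, ANKRD1, EIF5A, MYOF and GLIPR1. Probe sets below the filter were not compared. Of 29 probe sets with a rise above 4 log2 units, HBE1 included, 9 were in the fit. Likeness was measured as the Euclidean distance over the 4 arrays between log2 signals centred on each probe set's own mean, and the distances were 3.19, 4.75, 4.86, 4.91 and 5.00 log2 units. The unnamed 217572_at was closer than any of them, at 1.57. CCN2, a secreted matricellular protein, had 3225 and 3149 in high and 43.4 and 58.5 in low glucose. ANKRD1, an ankyrin repeat protein of heart and muscle, had 324 and 322 against 22.5 and 11.2. In all 5 genes the high glucose arrays lay above the low glucose arrays, as in HBE1. For EIF5A, a translation factor, the signals were 1714 and 1704 against 89.9 and 89.6, so that its replicates were the closest. With 4 arrays in 2 groups, such a measure mostly ranks genes by the size of their rise.

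**Figure D3:**
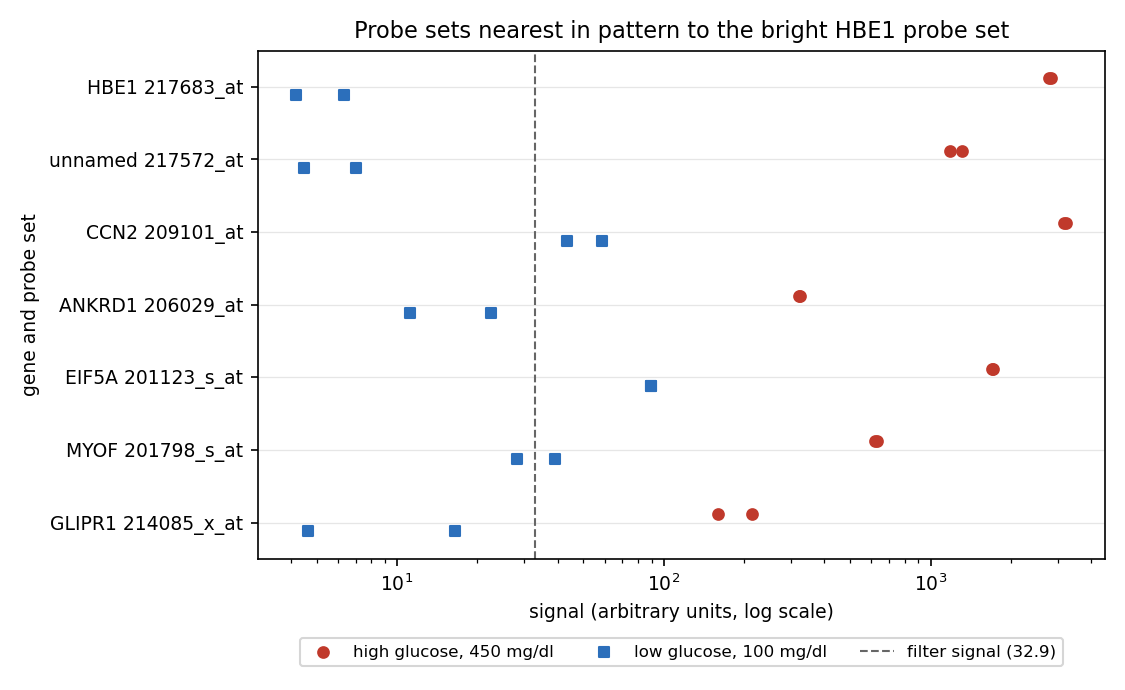
Signal on each array, on a log axis, of the bright HBE1 probe set, the unnamed 217572_at and the 5 genes in the fit most like HBE1. Each of these genes is shown by its nearest probe set. Circles are high glucose, squares low glucose, the dashed line is 32.9, and close points overlap. Only HBE1 and 217572_at go from above 1000 to below 10.

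The adult beta-like chains did not follow the bright HBE1 probe set. HBB had 4 probe sets, of which 3 carry the suffix x, which marks probes shared with other sequences. The brightest, 217232_x_at, had 65.3 and 38.5 in high and 23.6 and 42.8 in low glucose, with overlapping groups and a log2 difference of 0.66 ± 0.41 (SE of the fit). HBB 211696_x_at (26.8 and 49.1 against 35.3 and 21.0) and 209116_x_at (4.24 and 17.9 against 9.68 and 2.01) also overlapped, with differences of 0.41 and 0.98. In the remaining HBB probe set, 1562981_at, both high glucose arrays (14.9 and 5.28) lay below both low glucose arrays (33.4 and 21.2), at -1.59. The HBB probe sets thus pointed in both directions, by amounts of the order of their replicate spread.

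HBD, the minor adult chain, was the lowest of the members in high relative to low glucose. Its only probe set, 206834_at, had 2.87 and 7.35 on the high and 47.7 and 33.8 on the low glucose arrays. The groups did not overlap, and both low glucose arrays were just above 32.9. The log2 difference was -3.13, opposite in sign to that of the bright HBE1 probe set from the same gene cluster, and shrank to -1.42 when 16 units were added to every signal.

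Among the alpha-like genes HBZ, the partner of epsilon globin in embryonic hemoglobin, stayed dim on all arrays. Its signal was 2.95 and 4.03 in high and 3.93 and 2.29 in low glucose, a log2 difference of 0.20 with overlapping groups. HBM had 24.0 and 14.6 in high and 5.86 and 1.53 in low glucose, without overlap, at 2.65. With 16 units added this difference was 0.84. HBQ1 had 20.2 and 13.7 against 14.8 and 2.89, with overlap, at 1.35. No array of these 3 probe sets reached 32.9.

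CYGB and NGB, the globins outside the hemoglobin clusters, showed no bright signal in high glucose of the kind seen for HBE1. CYGB 1570410_at had 85.7 and 96.8 in high and 147 and 94.5 in low glucose. The groups overlapped, and the difference was -0.37 ± 0.24 (SE of the fit). CYGB 226632_at had 6.06 and 17.0 against 17.3 and 30.9, barely apart, at -1.19, and 1553572_a_at had 8.73 and 8.24 against 2.73 and 20.3, with overlap, at 0.19. The sign of the last turned to -0.09 with 16 units added. NGB 220337_at had 2.19 and 5.39 in high and 24.4 and 24.1 in low glucose, without overlap, at -2.82. The other NGB probe set, 236677_at, had 5.38 and 8.18 against 6.80 and 3.99, with overlap, at 0.35. The NGB probe sets therefore disagreed as well, both below 32.9.

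**Figure D4:**
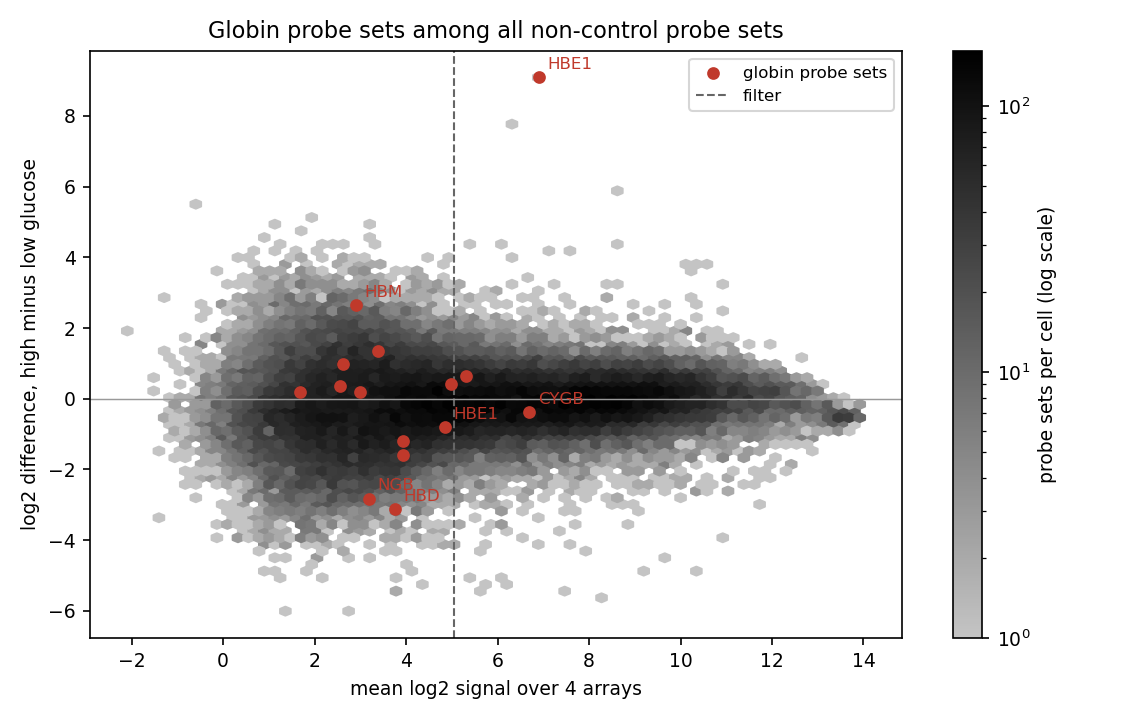
Log2 difference (high minus low glucose) against mean log2 signal for all 54613 non-control probe sets (grey cells, shaded by number on a log scale) and the 15 globin probe sets (red; those named in the plot are HBE1, HBM, HBD, NGB and the brightest of CYGB). HBE1 at 9.09 lies above every other probe set, while the dim globin probe sets lie within the broad cloud left of the dashed filter line.

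Arrays of the groups did not overlap in 6 of the 15 globin probe sets, 2 higher and 4 lower in high glucose, against 59.9% of all non-control probe sets. Among the 12 below the filter this held for 5, against 42.9% of all probe sets below the filter. These 5 were probe sets of HBD, HBM, NGB, CYGB and HBB. The fit called 50.4% of its 27307 probe sets (limma, adjusted p below 0.05). For the 3 globin probe sets in it no call is given, since values of this contrast chose the members.

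Probe sets that the annotation gives to several alpha or several gamma globin genes at once cannot be tied to 1 gene and are no members. The 6 shared by alpha globins had signals of 14.5 to 141 in high and 17.9 to 125 in low glucose. In the fit were 5 of them, with log2 differences from -0.65 to 0.78, and 1 was called, higher in high glucose (adjusted p = 0.018, limma). The 3 shared by gamma globins, the fetal beta-like chains next to HBE1, were dim throughout, at 2.59 to 25.3 in high and 4.45 to 16 in low glucose. None of these 9 came near the signal of the bright HBE1 probe set in high glucose. Myoglobin, MB, was also dim, at 17.0 and 1.38 against 32.0 and 3.79.

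Upstream sequence is shown for HBD, HBM and NGB, whose arrays separated the groups in opposite directions, to set the letters before their transcription starts side by side. The table of promoter sequences from RefSeq (GRCh38.p14) matched 3 of the 8 members. The 120 bases before the start are HBD chr11:5234484-5234603 (minus strand), HBM chr16:165858-165977 (plus strand) and NGB chr14:77271207-77271326 (minus strand), written 5′ to 3′. Capitals mark matches, on either strand, to GATAA (the core read by erythroid GATA factors), to CACCC (read by Krüppel-like factors), to CCAAT (read by the factor NF-Y) and to TATAA (the core of a TATA box). No match overlapped another.
HBD: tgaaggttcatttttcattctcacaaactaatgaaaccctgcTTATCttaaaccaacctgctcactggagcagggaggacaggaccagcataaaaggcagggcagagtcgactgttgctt
HBM: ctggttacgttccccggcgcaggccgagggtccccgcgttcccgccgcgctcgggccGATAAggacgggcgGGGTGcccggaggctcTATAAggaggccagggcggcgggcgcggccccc
NGB: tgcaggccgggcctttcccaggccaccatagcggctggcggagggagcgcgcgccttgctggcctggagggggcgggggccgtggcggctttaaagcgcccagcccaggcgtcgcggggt

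HBD held 1 GATAA match, on the opposite strand. HBM held 1 match to GATAA, 1 to CACCC on the opposite strand and 1 to TATAA, and NGB held 0 to all 4 motifs. Over 35116 promoter windows of the same length, 9.65% held GATAA, 33.6% CACCC, 20.4% CCAAT and 10.2% TATAA. A match describes letters in this window and is not a binding site.

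Genes that act with globins were taken as fixed lists, with each gene represented by its brightest probe set in the same fit. Of 12242 genes in the fit, 56.4% were called between high and low glucose, 23.8% higher and 32.6% lower, with a median log2 difference of -0.10. A count near these shares is not particular to a list. Small differences depend on the scaling. Of the called probe sets 45.9% were higher with the authors' scaling and 63.0% once arrays were centred on their medians. The median log2 difference over the probe sets in the fit was then 0.11 in place of -0.06. The 24 poly-A spike probe sets read added RNA that human cells do not make. They were also higher on the high glucose arrays, in 24 of 24, by a median of 1.94 log2 units. Their part in the globin differences above and in the differences below was not tested.

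Heme synthesis enzymes went both ways. Of 7 genes in the fit 2 were higher, 1 was lower and 4 did not pass, with a median of -0.005. CPOX, coproporphyrinogen oxidase, rose by 0.59 ± 0.08 log2 units, from 526 ± 0.3 to 796 ± 85.1 (adjusted p = 0.0011, limma). UROD rose by 0.31 ± 0.06 in its brightest probe set, while its other 2 did not pass. UROS fell by 0.41 ± 0.07, but its 2 dimmer probe sets rose, by 1.13 and 1.28. ALAS1, the rate-limiting enzyme outside red cells, had 454 and 457 in high and 461 and 467 in low glucose, a difference of -0.03 that did not pass. ALAS2, its red cell counterpart, was dim at 8.76 and 11.2 against 16.1 and 23.5.

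Carriers of heme and its precursors went both ways, with 2 of 10 higher, 3 lower and 5 not passing (median 0.01). SLC48A1, which moves heme out of lysosomes, rose by 0.87 ± 0.11 and in both its other probe sets. SLC25A39 rose by 0.48 ± 0.06. SLC25A37 (mitoferrin), SLC25A38 and ABCB10, all of the mitochondrial inner membrane, fell by 0.53 ± 0.13, 0.36 ± 0.10 and 0.34 ± 0.06. After median centring 3 were higher and 1 lower, and SLC25A38 (adjusted p = 0.21, limma) and ABCB10 (0.12) did not pass. SLC25A37 did not pass without high glucose replicate 2 (log2 difference -0.38) or low glucose replicate 1 (-0.40). Its fall was that of its brightest probe set only: 2 others rose by more, at 1.73 and 2.02, and 6 did not pass. SLC25A38 did not pass without high glucose replicate 1 (0.063) or low glucose replicate 2 (0.076).

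Heme breakdown and binding genes were mostly lower in high glucose. Of 9 in the fit 6 fell, 2 rose and 1 did not pass, with a median of -0.69. Thus 8 of 9 were called, against 56.4% of all genes. With the filter at the 75th percentile 6 of 7 were called, against 66.8% of all probe sets kept by it. The list was chosen with earlier results of these data known, so these counts are a description. HMOX1, the inducible heme oxygenase that opens the heme ring, had 94.3 and 84.1 in high and 419 and 443 in low glucose. Its fall of 2.27 ± 0.12 log2 units, 4.84-fold, was the largest of the list (adjusted p = 1.6e-05, limma), whereas HMOX2, the constitutive form, rose by 0.62 ± 0.07, with a further probe set at 0.02 that did not pass. BLVRB and BLVRA, which reduce biliverdin, the product of heme oxygenase, fell by 0.89 ± 0.08 and 0.69 ± 0.07. A further BLVRA probe set of like brightness, at -0.17 with overlapping groups, did not pass, nor did a dim one at 0.43, whereas another fell by 0.88. The heme-binding proteins HEBP1 and HEBP2 moved apart, at -0.69 and 0.74. HPX, hemopexin, fell by 1.10 ± 0.28, a call lost without high glucose replicate 1 (adjusted p = 0.064) or low glucose replicate 2 (0.065).

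Iron genes were split, with 3 of 13 higher, 4 lower and 6 not passing (median -0.21), or 5 higher and 1 lower after median centring. FTL, ferritin light chain, fell by 1.01 ± 0.08, from 11094 ± 492 to 5521 ± 154 (adjusted p = 6.4e-05, limma), and its second probe set by 1.12. NFS1, the cysteine desulfurase of iron-sulfur cluster assembly, rose by 1.73 ± 0.15, and ISCU, the scaffold of that assembly, by 0.54 ± 0.07. ACO1, the iron-regulatory protein IRP1, rose by 0.60 ± 0.08 in its brightest probe set and fell by 1.00 in the other. TFRC, the transferrin receptor, fell by 0.37 ± 0.06, PCBP1 by 0.38 ± 0.06 and STEAP3 by 0.38 ± 0.10. After median centring these 3 did not pass (adjusted p = 0.076, 0.075 and 0.13, limma). STEAP3 also failed without high glucose replicate 2 (log2 difference -0.25). With the authors' scaling 2 further TFRC probe sets in the fit were called lower, at -0.51 and -0.84. A further STEAP3 probe set, at 0.25, did not pass.

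**Figure D5:**
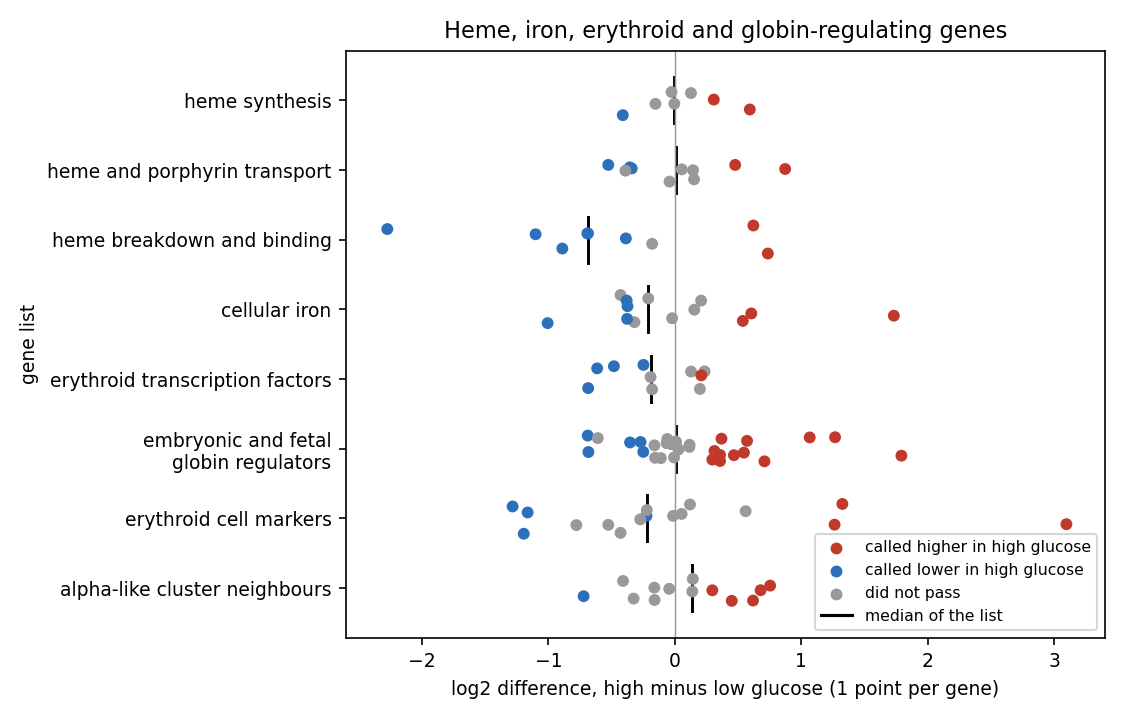
Log2 difference, high minus low glucose, of each gene in the fit (1 point per gene, brightest probe set), by list; red points were called higher, blue points lower, grey points did not pass, and bars mark list medians. Heme breakdown and binding genes lie mostly left of 0 with HMOX1 at -2.27, and TRIM58 at 3.10 is the farthest to the right.

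The erythroid factors GATA1, KLF1 and TAL1 were dim in both groups, while others of their list, some of them partners of GATA1 or TAL1, were not. GATA1 had 6.52 and 33.1 in high and 42.9 and 17.6 in low glucose. KLF1, which activates adult beta globin, had 20.6 and 11.4 against 16.6 and 19.1, and TAL1, a partner of GATA1, had 18.3 and 24.0 against 33.8 and 22.2. In all 3 the groups overlapped. GATA2, ZFPM1, LDB1 and LMO2 were above 32.9 on all 4 arrays, at 308 to 409, 384 to 461, 267 to 319 and 63.3 to 84.2, and did not pass. Of the 17 listed erythroid transcription factors with a probe set, 7 were below the filter. Among the 10 in the fit, 1 rose, 4 fell and 5 did not pass, with a median of -0.19.

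STAT5B fell by 0.69 ± 0.12, NFE2L2, the oxidative stress factor NRF2, by 0.61 ± 0.06, TCF3 by 0.48 ± 0.07 and YY1 by 0.25 ± 0.08, and SP1 rose by 0.21 ± 0.06. STAT5B, YY1 and SP1 each also had a probe set called in the opposite direction, and a second NFE2L2 probe set in the fit did not pass. Of the 9 other TCF3 probe sets in the fit, 3 were called higher, 2 lower and 4 did not pass. After median centring 3 factors were higher and 3 lower. The count of 5 calls became 3 without low glucose replicate 2, and without high glucose replicate 1 it was 2 higher and 3 lower. SP1 did not pass when high glucose replicate 2 (adjusted p = 0.095, limma), low glucose replicate 1 (0.083) or low glucose replicate 2 (0.053) was left out, nor YY1 without high glucose replicate 1 (0.089) or low glucose replicate 2 (0.17).

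Regulators of embryonic and fetal globins, mostly repressors, moved in both directions. All 31 of the 32 listed genes that had a probe set were in the fit, among them LIN28B and IGF2BP1, which favour fetal globin and do not repress it. Of these 31 genes 12 rose, both of those included, 5 fell and 14 did not pass (median 0.008), or 12 and 2 after median centring, so 17 of 31 were called against 56.4% of all genes. Without low glucose replicate 1 the calls were 12 higher and 3 lower. BCL11A, the main repressor of fetal globin, had 545 and 446 in high and 654 and 608 in low glucose, a fall of 0.35 ± 0.10. That call was lost without high glucose replicate 2 (adjusted p = 0.12, limma), without low glucose replicate 1 (0.074) and after median centring (0.19). ZBTB7A, the other main repressor, rose by 0.55 ± 0.08 (578 and 550 against 372 and 401) and by 1.60 in a dimmer probe set, while its other 2 in the fit did not pass. BCL11A had 3 other probe sets in the fit, at -0.03, -0.63 and -0.25, of which 1 was called lower and 2 did not pass. In their brightest probe sets the 2 principal repressors pointed in opposite directions, though the BCL11A call did not hold in every setting.

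MTA2, a subunit of the NuRD corepressor, rose by 1.79 ± 0.20, from 42.5 ± 5.3 to 146 ± 6.5, GATAD2A, of the same complex, by 1.07 ± 0.07 and SOX6, a partner of BCL11A, by 0.71 ± 0.11. CHD4, the NuRD remodeller, fell by 0.27 ± 0.08 in its brightest probe set, though its other 2 rose. Its fall did not pass without high glucose replicate 1 (adjusted p = 0.10, limma) or low glucose replicate 2 (0.090). GATAD2A and SOX6 each also had 1 probe set called lower. LIN28B, an RNA-binding protein that favours fetal globin, rose by 1.27 ± 0.07, from 455 ± 27.9 to 1094 ± 6.8, and IGF2BP1, another such protein, by 0.36 ± 0.07. NR2C2 and KLF3 fell by 0.69 ± 0.08 and 0.68 ± 0.07. EIF2AK1, the heme-regulated kinase that restrains globin translation, stood at -0.11 ± 0.07 in its brightest probe set and did not pass. Its other probe set was called lower, at -0.71.

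Markers of red cells went both ways. Of 31 listed genes 25 had a probe set and 16 were in the fit, of which 3 were higher, 4 lower and 9 did not pass (median -0.22), or 4 higher and 3 lower after median centring. Without low glucose replicate 1 the calls were 4 higher and 2 lower. Summed over the 25 genes, the signal was 2985 to 3077 on the high and 2691 to 2933 on the low glucose arrays. Of this, CA2 alone gave 690 and 707 on the high and 270 and 287 on the low glucose arrays. The order of the sums rests on this gene. AHSP, the chaperone of alpha globin, had 30.8 and 36.3 against 50.9 and 45.7, and the membrane proteins EPB42 and RHAG and the nuclear protein HEMGN were below the filter. Other markers that did not pass lay above 32.9 on all 4 arrays. These were XK (236 to 272), DMTN (183 to 279), SPTB (63.1 to 115), TMCC2 (83.5 to 114) and ANK1 (40.7 to 49.3). EPOR, the erythropoietin receptor, fell by 1.16 ± 0.17 and in 2 of its 3 other probe sets in the fit. No measured marker was at exactly 0.

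TRIM58, a ubiquitin ligase of late red cell precursors, stood 3.10 ± 0.32 log2 units higher in high glucose, with 208 and 162 in high and 28.7 and 16 in low glucose. It was listed with this rise already known and entered the fit through its 2 high glucose arrays, so that its value is a description, although it counts among the 3 higher genes. CA2 and BPGM, which are abundant in red cells but also made elsewhere, rose by 1.32 ± 0.08 and 1.26 ± 0.13. ERMAP fell by 1.28 ± 0.30, CA1 by 1.20 ± 0.34 and EPB41 by 0.22 ± 0.07. CA1 did not pass without high glucose replicate 1 (adjusted p = 0.086) or low glucose replicate 1 (0.13), and EPB41 without high glucose replicate 1 (0.12) or low glucose replicate 1 (0.11).

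Of 8 listed markers of HEK293 cells, 7 lay above 32.9 on all 4 arrays, of which 3 were higher, 1 was lower and 3 did not pass. KRT18, an epithelial keratin, had 8315 and 9775 in high and 4293 and 4309 in low glucose, and VIM, vimentin, fell by 0.91 ± 0.08. The neuronal filament gene NEFL lay between 1179 and 1442 throughout, PAX2, a kidney developmental factor, only between 34.6 and 54.6, and NEFM below the filter. In the fit were also 2 of 6 fibroblast markers, COL1A1 and COL3A1, both higher in high glucose in their brightest probe set, by 0.55 ± 0.10 and 1.08 ± 0.19 (another COL1A1 probe set fell by 0.99), with 0 of 5 leukocyte, 0 of 5 hepatocyte and 1 of 5 endothelial markers. Summed fibroblast marker signals were 539 and 546 in high and 344 and 376 in low glucose. Their part in the globin values was not tested.

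Genes beside the beta cluster were dim, while most beside the alpha cluster were measured above the filter. Around HBE1, HBB and HBD, 9 of the 20 nearest protein-coding genes had a probe set, all 9 of them olfactory receptor genes, and 0 passed the filter. OR51B4, the nearest measured gene on the HBE1 side, had 1.23 and 6.76 in high and 18.0 and 1.84 in low glucose, dim and overlapping. In OR51B5, OR51B6, OR51M1, OR51I2 and OR52D1 both low glucose arrays lay above both high glucose arrays, with log2 differences of -3.08, -0.79, -0.70, -1.75 and -2.08. The remaining 4 overlapped, and all 9 stayed below 50 on every array. Of all probe sets below the filter, 42.9% had groups that did not overlap, in either direction. Around the alpha-like genes, 13 of 17 neighbours were in the fit, of which 5 rose, 1 fell and 7 did not pass (median 0.14), so that 6 of 13 were called against 56.4% of all genes. Without low glucose replicate 1 the calls were 5 higher and 3 lower, without low glucose replicate 2 they were 5 and 2, and with no intensity trend 3 and 2.

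SNRNP25, a spliceosome protein gene, rose by 0.75 ± 0.06, LUC7L by 0.68 ± 0.12 in its brightest probe set, POLR3K, an RNA polymerase III subunit, by 0.62 ± 0.08 and NME4 by 0.30 ± 0.06. MPG, a DNA repair glycosylase, fell by 0.72 ± 0.07. The other 3 LUC7L probe sets in the fit, at 0.07, -0.06 and -0.09, did not pass. NPRL3, whose introns hold the distant enhancers of alpha globin, rose by 0.45 ± 0.12. Without high glucose replicate 1 NPRL3 did not pass (adjusted p = 0.071, limma), and another of its probe sets was called lower. HBZ, HBM and HBQ1 were below the filter between these expressed neighbours.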

How the data were processed

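The authors deposited linear signal intensities, with 1 value for each probe set of an array. GCOS, the Affymetrix software, is named without a version per the submitters' processing notes, and the steps after scanning are not given in these sources. A 2% trimmed mean of 200.02 on every array shows that the intensities were scaled before deposit, which hides a change shared by most transcripts. The number of arrays limits the precision.

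Intensities were log2-transformed. Of 54675 probe sets 62 controls were left out, and 27307 at or above the median mean log2 signal were fitted over all 4 arrays with limma 3.58.1 in R 4.3.3 (lmFit, eBayes with intensity trend, no covariate), with two-sided p-values adjusted by Benjamini-Hochberg and a threshold of 0.05. The fit was tested on simulated data. Errors beside log2 differences are its standard errors, and errors beside signals are SDs over 2 arrays. Single-gene annotation covered 41091 non-control probe sets, several genes 1801 and none 11721. By gene identifier 41037 were matched in RefSeq (GRCh38.p14). Listed genes without a single-gene probe set were not analysed here.

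The members and lists were chosen with earlier results of these data known. Named were all member probe sets, up to 4 called genes per direction and list with the largest difference, fixed genes whatever their values (ALAS1, ALAS2, GATA1, KLF1, TAL1, BCL11A, ZBTB7A, EPOR, TFRC, HMOX1, TRIM58 and EIF2AK1), up to 6 called neighbours, and the 5 genes most like HBE1. A further gene of the rule is not reported here. BLVRA, HEMGN, EPB42, RHAG, AHSP, MB, KRT18, NEFL, NEFM, COL1A1, COL3A1, VIM, PAX2, GATA2, ZFPM1, LDB1, LMO2, IGF2BP1, the olfactory receptor genes and DNAJC15 are named in addition, after their values had been seen. The same holds for XK, DMTN, SPTB, TMCC2 and ANK1. Alternatives covered normalization, the filter, a pseudocount of 16, the trend, a replicate block and leaving out each array.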

Additional observations from a re-analysis of the deposited data

How the results depend on the processing

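The rise of the bright HBE1 probe set kept its direction under every normalization, the pseudocount and each left-out array, from 8.80 to 9.39 when an array was left out. It moved to 7.06 with a pseudocount of 16 signal units, since the added value exceeds the low glucose signals. With the stricter filter, which tests fewer probe sets, 9115 of 13654 probe sets were called, and 3 erythroid markers. With no intensity trend the calls were 3 heme and porphyrin carriers, 3 erythroid transcription factors and 11 globin regulators. With no filter 3 erythroid transcription factors were called. Over all probe sets tested, the share called was 50.4% in the main fit, 42.5% with no trend and 23.5% with no filter. The cause of these lower counts was not tested. Leaving out 1 array gave 3 to 5 erythroid transcription factors, and a lone array was then taken to vary like the others. The other totals of calls stayed within 1.5 times their value, though counts in 1 direction moved more in several lists, as given with those lists. Of the 48 called genes named from the lists, 15 lost their call under at least 1 alternative, 9 of them after median centring. With the replicate number as a block 13842 probe sets were called against 13759 without it. Same-numbered arrays shared only a number (correlation of their deviations from the group means 0.008), and the block moved no list by over 1.5 times. Signals near or below 32.9 limit every globin value except the bright HBE1 probe set in high glucose and CYGB 1570410_at.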
